A study of Mus musculus with 6 samples.

Results

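Pericytes and vascular smooth muscle cells, together called mural cells, wrap the blood vessels that supply a nerve. The 9 genes described here are the PDGF receptor *Pdgfrb* and its ligand *Pdgfb*, the pericyte regulator *Rgs5*, the contractile genes *Acta2*, *Tagln*, *Myh11*, *Cnn1* and *Mylk*, and the vessel ligand *Angpt1*. They were chosen by name, out of 24015 genes counted, as known genes of these cells and of the signals that recruit them. Earlier results of these data were known when the choice was made. All 9 had enough reads to be tested, along with 11371 genes in all. Their values come from RNA-Seq of sciatic nerve, the main nerve of the hind limb, in which loss of the ubiquitin ligase subunit Rnf40 from Schwann cells was studied for its effect on myelination. Control mice were Rnf40 fl/fl without Cre, and *Rnf40ΔSC* mice carried Dhh::Cre and Rnf40 fl/fl, so that floxed alleles were shared by both groups. All mice were at postnatal day 14, with 3 libraries in each group, and each library was a pool of nerves. The labels give a mixed 129SvJ/C57Bl/6J background for every sample, whereas the methods name C3H in place of 129SvJ.

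Cre is active in the Schwann cell lineage from embryonic stages onwards and was not directed at mural cells, which in the nerve surround vessels of the endoneurium and epineurium. Each library therefore holds RNA of the whole nerve, with Schwann cells, fibroblasts, perineurial, endothelial and mural cells side by side. In a bulk library, fewer cells of a type and less RNA per cell cannot be told apart. As background, endothelial cells secrete PDGF-BB, which binds Pdgfrb on mural cells and holds them at the vessel wall. Mural cells in turn secrete Angpt1, which acts on the endothelial receptor Tek. Smooth muscle cells of arterioles and arteries add a contractile apparatus of actin, myosin and their regulators, most of whose genes respond to serum response factor through an element called the CArG box.

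Control replicates 1, 2 and 3 had 1317167, 1992622 and 2468765 reads on genes, and the *Rnf40ΔSC* replicates 1, 2 and 3 had 2184268, 1459387 and 2186710. Levels are given as CPM, read counts relative to the size of each library after TMM scaling, and 1 read stood for 0.411 to 0.818 CPM. *Rnf40* itself lay at 67.1, 65.1 and 73.1 CPM in control and at 46.5, 46.6 and 48.5 CPM in *Rnf40ΔSC* libraries. All 3 *Rnf40ΔSC* libraries were below all controls, in the direction of the deletion, and the gene fell by 31.2% (log2 fold change −0.54 ± 0.14 SE, adjusted p = 0.00243, edgeR quasi-likelihood test, Benjamini-Hochberg adjusted). With total counts in place of TMM, the adjusted p was 0.116, the highest of the alternatives, which began at 0.00235. The Schwann cell gene *Sox10*, at 493, 543 and 558 CPM in control and 324, 296 and 305 CPM in *Rnf40ΔSC* libraries, and the endothelial gene *Pecam1*, at 161 CPM or more, were present in every library, as markers of nerve and its vessels named after their values were seen. *Sox10* fell by 0.79 on the log2 scale (adjusted p = 8.87e-09, edgeR quasi-likelihood test, Benjamini-Hochberg adjusted). *Pecam1* fell by 0.44 (adjusted p = 0.000649 in the same test), a call lost under total-count scaling (0.181).

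Genes with an adjusted p of 0.05 or less were called. By this limit 1757 genes (15.5% of those tested) were higher and 1841 (16.2%) were lower in *Rnf40ΔSC* nerves. Of the 9 mural genes, 3 fell, namely *Pdgfrb*, *Rgs5* and *Tagln*, and 0 rose. By edgeR at an unadjusted p of 0.05 and by DESeq2 the number that rose was likewise 0. The means of all 9 were lower in *Rnf40ΔSC* nerves, and in the same 3 genes every *Rnf40ΔSC* library was below every control library, a pattern seen in 21.6% of all genes tested. The median log2 fold change of the 9 genes was −0.48, against −0.002 over all genes tested, and it was −0.29 without control replicate 1 and −0.63 without *Rnf40ΔSC* replicate 3. Under the stricter limits of the study, a log2 fold change of 0.8 or more in size and a base mean of 20 or more besides, 3.73% of genes were higher and 5.05% lower, and 0 of the 9 mural genes passed in edgeR. Scaling by total counts moved the median of all genes by 0.27 on the log2 scale, and then the median of the mural genes was −0.22 and 2 of them, *Pdgfrb* and *Tagln*, were called lower, beside 7.79% of all genes lower and 32.9% higher in that fit.

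**Figure D1:**
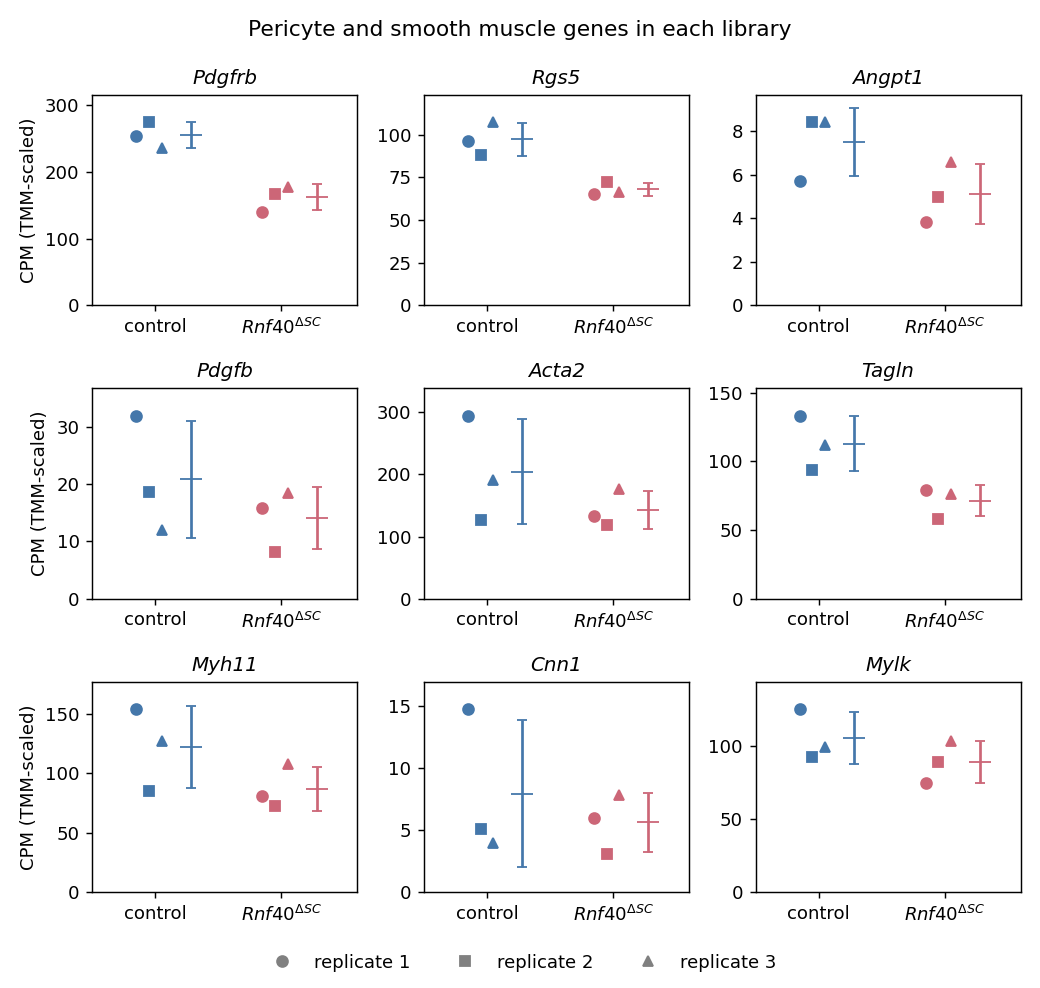
TMM-scaled CPM (y axes, starting at 0) of the 9 genes in control (blue) and *Rnf40ΔSC* (red) nerves, with a marker shape for each replicate and bars for mean ± SD (n = 3). The groups are separate for *Pdgfrb*, *Rgs5* and *Tagln* and overlap for the other genes.

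The first group of genes carries signals between endothelial and mural cells. *Pdgfrb*, the receptor tyrosine kinase through which mural cells respond to PDGF-BB, lies on chromosome 18. It was measured at 254, 274 and 236 CPM in control replicates 1, 2 and 3 and at 141, 168 and 178 CPM in *Rnf40ΔSC* replicates. The lowest control library was thus well above the highest *Rnf40ΔSC* library, and the gap between groups exceeded the spread within either of them. The mean went from 255 ± 19.3 to 162 ± 19.2 CPM (SD, n = 3), and *Pdgfrb* fell by 36.4% (log2 fold change −0.65 ± 0.10 SE, 95% interval −0.86 to −0.45, adjusted p = 3.42e-06, edgeR quasi-likelihood test, Benjamini-Hochberg adjusted). The call held in all 13 alternatives, with log2 fold changes from −0.72 to −0.38. Fibroblasts of nerve also express *Pdgfrb*, so that its reads can come from cells other than mural cells.

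*Pdgfb*, which encodes the ligand chain made by endothelial cells, was scarce and variable. Its levels were 31.9, 18.5 and 11.97 CPM in control and 15.8, 8.07 and 18.5 CPM in *Rnf40ΔSC* libraries. Control replicate 1 was high and the other libraries of both groups were intermingled. The difference did not pass the test (log2 fold change −0.42 ± 0.33 SE, adjusted p = 0.376, edgeR quasi-likelihood test, Benjamini-Hochberg adjusted), and its 95% interval ran from −1.12 to 0.29. The log2 fold change was −0.05 without control replicate 1 and −0.75 without control replicate 3, in neither case with a call.

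*Angpt1* encodes the mural and fibroblast ligand of the endothelial receptor Tek and had the fewest reads per base of the 9 genes. It was counted 7, 15 and 19 times in control and 9, 8 and 16 times in *Rnf40ΔSC* libraries, or at 5.73, 8.42 and 8.42 against 3.84, 4.97 and 6.58 CPM. Control replicates 2 and 3 were the highest libraries, while control replicate 1 was below *Rnf40ΔSC* replicate 3. The difference did not pass the test (log2 fold change −0.58 ± 0.38 SE, adjusted p = 0.264, edgeR quasi-likelihood test, Benjamini-Hochberg adjusted), and without *Rnf40ΔSC* replicate 1 the log2 fold change was −0.38. In the mm9 annotation a long noncoding RNA, *Gm17473*, overlaps *Angpt1* on the opposite strand, and the strand setting of the counting is not given in the sources used here, so that its reads may be mixed in.

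*Rgs5*, a regulator of G protein signalling that shortens responses to vasoactive hormones and is a usual marker of pericytes, lies on chromosome 1. Its level was 96.5, 88.1 and 107 CPM in control and 65.2, 72.0 and 66.6 CPM in *Rnf40ΔSC* libraries. Both groups were tight and did not overlap. *Rgs5* fell by 30.6% (log2 fold change −0.53 ± 0.12 SE, 95% interval −0.77 to −0.28, adjusted p = 0.000831, edgeR quasi-likelihood test, Benjamini-Hochberg adjusted). The call was lost under total-count scaling, with a log2 fold change of −0.26 and an adjusted p of 0.0897, where the alternatives ranged from 0.000352 upwards to that value.

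The other group holds the contractile genes. *Tagln* encodes transgelin, an actin-bundling protein that appears early in smooth muscle differentiation. It stood at 133, 93.7 and 112 CPM in control and at 79.3, 58.4 and 76.4 CPM in *Rnf40ΔSC* nerves. Replicate 2 was lowest in either group, and all controls were above all *Rnf40ΔSC* libraries. *Tagln* fell by 35.5% (log2 fold change −0.63 ± 0.13 SE, 95% interval −0.90 to −0.37, adjusted p = 0.00024, edgeR quasi-likelihood test, Benjamini-Hochberg adjusted) and was called in all 13 alternatives, with adjusted p-values up to 0.0273. In mm9 the gene overlaps *Pcsk7*, a proprotein convertase gene on the opposite strand, named here after its values were seen. *Pcsk7* had a log2 fold change of 0.12 ± 0.19 SE and did not pass the test.

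*Acta2* encodes smooth muscle alpha-actin, the main actin of vascular smooth muscle. It was measured at 294, 127 and 192 CPM in control and at 133, 119 and 177 CPM in *Rnf40ΔSC* libraries. Control replicate 1 stood far above the rest, and control replicate 2 lay within the range of the *Rnf40ΔSC* group. The spread in control (SD 84.5 CPM, n = 3) was larger than the difference between the means of 204 and 143 CPM. The difference did not pass the test (log2 fold change −0.48 ± 0.38 SE, 95% interval −1.51 to 0.54, adjusted p = 0.423, edgeR quasi-likelihood test, Benjamini-Hochberg adjusted), nor did it in any of the 13 alternatives, with a log2 fold change of −0.16 without control replicate 1 and −0.74 without control replicate 2. The coding sequence of *Acta2* is nearly identical to those of other actin genes, among them *Actg2* and skeletal *Acta1*, and since only uniquely mapped reads were counted, its level is uncertain to that extent.

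*Myh11*, the heavy chain of smooth muscle myosin and the most restricted marker of these cells, showed the pattern of *Acta2*. Its level was 154, 85.3 and 127 CPM in control and 81.0, 72.0 and 107 CPM in *Rnf40ΔSC* libraries. *Rnf40ΔSC* replicate 3 exceeded control replicate 2, so that the groups overlapped. The log2 fold change of −0.46 ± 0.25 SE did not pass (adjusted p = 0.235, edgeR quasi-likelihood test, Benjamini-Hochberg adjusted). Its call changed with the processing: it was lower without control replicate 2 (−0.67, adjusted p = 0.00155) and without *Rnf40ΔSC* replicate 3 (−0.63, adjusted p = 0.0491), while without control replicate 1 the log2 fold change was −0.29 (adjusted p = 0.308). It was also lower without a filter on low counts (adjusted p = 0.00166) and, in an alternative chosen after seeing the data, without edgeR's robust option (adjusted p = 0.0479), whereas under total-count scaling the adjusted p was 0.633, the highest of the alternatives. The robust fit gave *Myh11* 5.92 degrees of freedom and the fit without that option 18.4, at the same fold change. The fit without a filter on low counts gave it 310, at a log2 fold change of −0.45.

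The remaining contractile genes were not called. *Mylk*, the kinase that phosphorylates the myosin light chain to start contraction, lay at 125, 92.0 and 98.9 CPM in control and at 74.6, 88.8 and 104 CPM in *Rnf40ΔSC* libraries. Only *Rnf40ΔSC* replicates 1 and 2 were below every control. The log2 fold change was −0.22 ± 0.13 SE (adjusted p = 0.187, edgeR quasi-likelihood test, Benjamini-Hochberg adjusted). Without *Rnf40ΔSC* replicate 3 *Mylk* was called lower (−0.35, adjusted p = 0.0358, the lowest of the alternatives, which reached 0.833), and under total-count scaling its sign turned (0.04), without a call. The log2 fold change was −0.10 without control replicate 1 and −0.09 without *Rnf40ΔSC* replicate 1. *Cnn1*, which encodes the actin-binding protein calponin, had 18, 9 and 9 reads in control and 14, 5 and 19 in *Rnf40ΔSC* libraries, or 14.7, 5.05 and 3.99 against 5.97, 3.10 and 7.81 CPM. The groups were intermingled, and the log2 fold change of −0.28 ± 0.44 SE turned to 0.38 without control replicate 1 and was −0.66 without control replicate 3, in no case with a call.

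**Figure D2:**
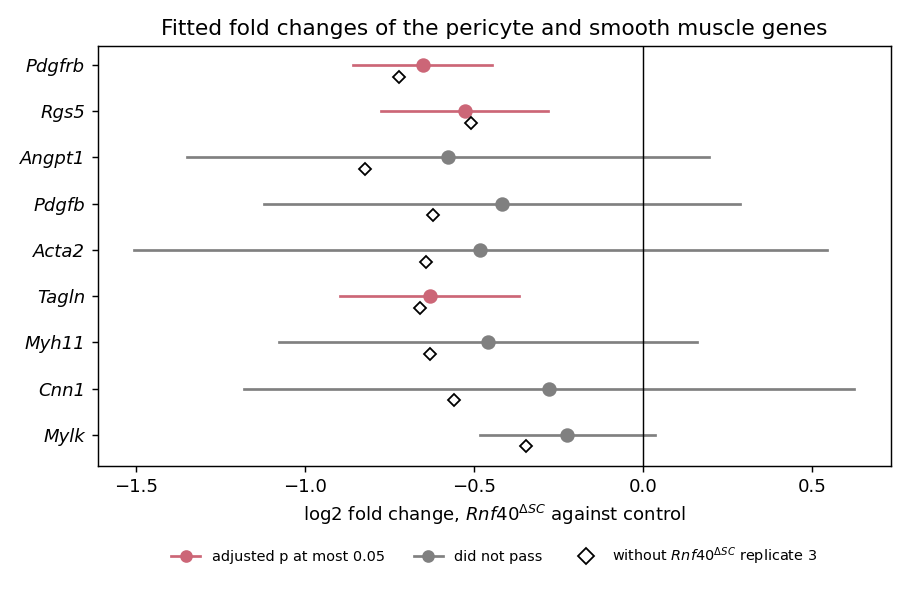
Fitted log2 fold change of *Rnf40ΔSC* against control (x axis) for each of the 9 genes, with 95% intervals from the edgeR fit, red where the adjusted p was at most 0.05 and gray where the gene did not pass. Open diamonds give the value without *Rnf40ΔSC* replicate 3, which is further below 0 than the value from all libraries for every gene but *Rgs5*.

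Levels of different genes can be compared per length of their exons (CPM per kb, with exons of all annotated transcripts merged, mm9). In control nerves *Acta2* was the most abundant of the 9 at 115 ± 47.5 CPM per kb, followed by *Tagln* at 71.2 ± 12.5 and *Pdgfrb* at 46.5 ± 3.52 (SD, n = 3). *Rgs5* followed at 21.4 ± 2.11 and *Myh11* at 18.4 ± 5.20 CPM per kb. At the lower end were *Mylk* at 9.91 ± 1.64, *Pdgfb* at 7.13 ± 3.48, *Cnn1* at 3.34 ± 2.497 and *Angpt1* at 1.77 ± 0.366 CPM per kb. The control libraries of *Tagln* and *Pdgfrb* did not overlap on this scale, nor did those of *Pdgfrb* and *Rgs5* or of *Myh11* and *Mylk*, while the other neighbours in this order did not differ beyond their spread. The means of *Rnf40ΔSC* nerves had the same order, from 80.3 for *Acta2* and 45.0 for *Tagln* to 1.20 CPM per kb for *Angpt1*.

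The genes also differed in how they moved from library to library. Over the 6 libraries, Pearson's r of log2 CPM was 0.97 between *Acta2* and *Myh11*, and only 10 of 9414 genes with a mean of at least 10 CPM were closer to *Myh11* than *Acta2* was. The ratio of *Acta2* to *Myh11* CPM accordingly stayed between 1.49 and 1.91 in all libraries, and *Tagln* (r = 0.87) and *Mylk* (r = 0.85) followed *Myh11* less closely. The 5 genes most like *Myh11* were *Ndufa10*, *Lhx6*, *Helz2*, *Rpl6* and *Hip1*, with r from 0.979 to 0.996. *Pdgfrb* was most alike to *Rgs5* among the mural genes (r = 0.85), though 1268 genes were closer to it than *Rgs5*, and its 5 nearest genes were *Nacc2*, *Tspan18*, *Slc41a2*, *Tgfbr2* and *Aldh1l1* (r from 0.991 to 0.996). These correlations are descriptions over 3 control and 3 *Rnf40ΔSC* libraries, so that differences between the groups in level and composition enter them, and among 9414 genes many reach high values.

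Within a group, the same libraries tended to stand out for many of the 9 genes. Control replicate 1 was the highest control for 6 of them, and control replicate 2 the lowest for 5. Among *Rnf40ΔSC* libraries, replicate 3 was the highest for 7 of the 9 genes and the lowest for 0. Summed over the 9 genes, levels were 1109.9, 792 and 896 CPM in control and 599.6, 594 and 741 CPM in *Rnf40ΔSC* libraries.

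The start of *Acta2* was searched for the CArG box, the element bound by serum response factor, reading both strands, which are alike for this element. RefSeq promoters (GRCm38.p6) were at hand for 4 of the 9 genes, *Acta2*, *Cnn1*, *Mylk* and *Rgs5*, and not used for *Tagln*, *Myh11*, *Pdgfb*, *Angpt1* and the PDGF receptor gene. In the 250 bases upstream of *Acta2*, chr19:34255374-34255623 on the minus strand, 2 stretches of 10 bases match the box but for 1 base of its A/T core of 6. They start 84 and 34 bases before the start site and are shown in capitals.
Acta2: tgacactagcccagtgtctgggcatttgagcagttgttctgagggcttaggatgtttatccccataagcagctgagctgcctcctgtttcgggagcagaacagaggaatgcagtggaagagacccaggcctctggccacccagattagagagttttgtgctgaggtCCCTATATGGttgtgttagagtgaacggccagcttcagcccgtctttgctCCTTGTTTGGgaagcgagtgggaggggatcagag
A perfect box was not among these letters, and the windows of *Cnn1*, *Mylk* and *Rgs5* held neither a perfect nor a near match. Of 32851 promoter windows of this length, 1.47% held a perfect box, 8.59% a perfect box or near match, and 0.67% held 2 or more. The match describes the letters and does not show that the site is bound. *Acta2* itself did not pass the test (log2 fold change −0.48).

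Serum response factor and its partners were looked at next as a list of 8 genes, of which 6 were tested. *Klf4*, a repressor of contractile genes, was the only gene of the list called, 1 of 6 beside 16.2% of all genes called lower, and it fell (log2 fold change −0.49 ± 0.18 SE, adjusted p = 0.0367, edgeR quasi-likelihood test, Benjamini-Hochberg adjusted). Its call was lost in DESeq2, without the robust option and without control replicate 1 or 2 or *Rnf40ΔSC* replicate 1 or 2, with adjusted p-values from 0.0589 to 0.173, and under total-count scaling (0.351). *Mkl2*, a myocardin-related coactivator and the most abundant gene of the list, had a log2 fold change of 0.10 ± 0.14 SE and did not pass, except under total-count scaling (0.37). Its log2 fold change was 0.22 without *Rnf40ΔSC* replicate 1 and −0.04 without *Rnf40ΔSC* replicate 3, in neither case with a call. *Myocd*, the smooth muscle coactivator myocardin, had between 0 and 4 reads in every library and was not tested. The median log2 fold change of the list was −0.05, and from −0.12 to 0.02 with single libraries left out.

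A list of 17 other contractile and cytoskeletal genes extends the picture beyond the 9. Of 14 tested, 5 fell and 0 rose, beside 16.2% of all genes lower and 15.5% higher. The number that rose was also 0 at an unadjusted p of 0.05 in edgeR and in DESeq2. The median log2 fold change of the list was −0.50. *Smtn*, which encodes the actin-binding smoothelin and was the most abundant, stood at 882, 894 and 922 CPM in control and at 588, 566 and 648 CPM in *Rnf40ΔSC* libraries. These groups were far apart relative to their spread, and *Smtn* fell by 33.2% (log2 fold change −0.58 ± 0.08 SE, adjusted p = 8.68e-07, edgeR quasi-likelihood test, Benjamini-Hochberg adjusted). *Tgfb1i1*, a focal adhesion protein known as Hic-5, fell by 0.82 on the log2 scale, and *Myl9*, the regulatory light chain of smooth muscle myosin, by 0.51. *Flna* (filamin A) fell by 0.34, a call lost without *Rnf40ΔSC* replicate 1 (adjusted p = 0.0529), and *Cald1* (caldesmon), named here after its values were seen, by 0.31. Under total-count scaling only *Smtn* and *Tgfb1i1* were called, with log2 fold changes of −0.32 and −0.56, beside 7.79% of all genes lower. Several genes of this list, such as *Flna* and *Cald1*, are also expressed in fibroblasts and other cells of nerve.

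The number of lower genes in this list changed most with 1 library. It was 4 without *Rnf40ΔSC* replicate 1 and 5 without *Rnf40ΔSC* replicate 2 or any single control library. Without *Rnf40ΔSC* replicate 3, 11 of the 14 genes were lower, beside 17.3% of all genes in that fit. The median of the list was then −0.78, whereas it was −0.30 without *Rnf40ΔSC* replicate 1 or 2. The genes added were *Des*, *Itga8*, *Nexn*, *Synpo2*, *Tpm1* and *Tpm2*, named after their values were seen, and most of these are also genes of skeletal muscle. Desmin (*Des*), an intermediate filament protein, lay at 72.8, 73.5 and 49.2 CPM in control and at 14.5, 13.04 and 85.1 CPM in *Rnf40ΔSC* libraries. Beta-tropomyosin (*Tpm2*) likewise lay at 149.7, 100.4 and 96.6 CPM against 26.0, 42.8 and 176 CPM. In both genes *Rnf40ΔSC* replicate 3 was the highest of all libraries and the other *Rnf40ΔSC* libraries the lowest.

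The same libraries differed in skeletal muscle RNA. The 16 skeletal muscle markers, all of them detected, summed to 5246, 4032 and 2982 CPM in control and to 137, 332 and 3827 CPM in *Rnf40ΔSC* libraries, with *Myh4*, a fast myosin heavy chain, as the most abundant. *Myh4* lay at 1399, 929.8 and 696 CPM in control and at 24.7, 28.6 and 605 CPM in *Rnf40ΔSC* libraries. Muscle RNA was therefore low in *Rnf40ΔSC* replicates 1 and 2 and at control level in replicate 3. In edgeR 0 of the 16 markers were called, beside 16.2% of all genes lower and 15.5% higher. The number was also 0 in edgeR at an unadjusted p of 0.05. It was 0 in DESeq2 too, beside 11.3% of all genes lower and 10.3% higher. The median log2 fold change was −1.18 (−0.69 without *Rnf40ΔSC* replicate 1, −4.12 without replicate 3). But 14 were lower without *Rnf40ΔSC* replicate 3, beside 17.3% of all genes, and 6 without edgeR's robust option, beside 15.8%. The part of muscle RNA in the levels of the contractile genes was not tested. As measured without that library, *Pdgfrb*, *Rgs5* and *Tagln* had log2 fold changes of −0.72, −0.51 and −0.66 and were called, and 5 of the 9 mural genes were lower, with *Myh11* and *Mylk* added, beside 17.3% of all genes lower and 16.7% higher.

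**Figure D3:**
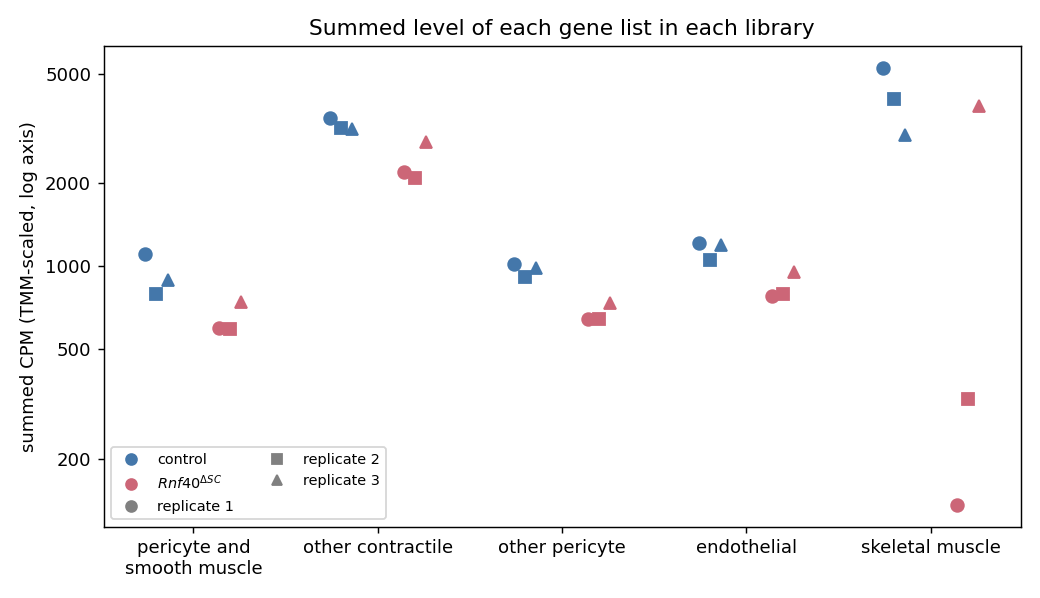
Summed TMM-scaled CPM (y axis, log scale) of the 9 pericyte and smooth muscle genes and of the lists of other contractile, other pericyte, endothelial and skeletal muscle genes, in each control (blue) and *Rnf40ΔSC* (red) library, with a marker shape for each replicate. The skeletal muscle sum is 137 and 332 CPM in *Rnf40ΔSC* replicates 1 and 2 but 3827 CPM in replicate 3, while the other 4 sums separate the groups.

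Genes that mark pericytes besides the 9 gave a more even result. Of 16 such genes 14 were tested, 8 fell and 1 rose, beside 16.2% of all genes lower and 15.5% higher. The median log2 fold change of the list was −0.53. With single libraries left out, 6 to 10 of these genes were lower, with medians from −0.60 to −0.47. Their summed level was 1019, 914 and 983 CPM in control and 645, 645 and 735 CPM in *Rnf40ΔSC* libraries, so that every *Rnf40ΔSC* library was below every control. *Vtn*, which encodes the adhesive glycoprotein vitronectin, went from 79.3, 92.0 and 89.1 CPM in control to 42.6, 42.8 and 53.4 CPM. No library crossed between the groups, and *Vtn* fell by 46.6% (log2 fold change −0.91 ± 0.14 SE, adjusted p = 1.89e-06, edgeR quasi-likelihood test, Benjamini-Hochberg adjusted). *Abcc9*, the sulfonylurea receptor subunit of the potassium channel of pericytes, fell by 0.71 on the log2 scale, with 108, 98.8 and 135 CPM in control and 66.5, 73.9 and 70.3 CPM in *Rnf40ΔSC* libraries. *Anpep* (aminopeptidase N, or CD13) fell by 0.55 and *Cspg4*, the NG2 proteoglycan, by 0.54, again without overlap. *Mcam* (CD146), the most abundant gene of the list, fell by 0.32, a call lost without control replicate 1 (adjusted p = 0.0659) or *Rnf40ΔSC* replicate 1 (0.0647).

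The gene that rose was *Foxs1*, a forkhead transcription factor gene of pericytes, named here after its values were seen. It lay at 11.5, 7.29 and 10.6 CPM in control and at 17.5, 12.4 and 21.0 CPM in *Rnf40ΔSC* libraries (log2 fold change 0.83 ± 0.28 SE, adjusted p = 0.0217, edgeR quasi-likelihood test, Benjamini-Hochberg adjusted). All *Rnf40ΔSC* libraries were above all controls, but the call was lost in DESeq2 (adjusted p = 0.104) and without control replicate 2 (0.128) or 3 (0.0511) or *Rnf40ΔSC* replicate 1 (0.0541) or 3 (0.106). Under total-count scaling 4 genes of the list were called lower, beside 7.79% of all genes. They were *Abcc9*, *Anpep*, *Kcnj8* and *Vtn*, of which *Kcnj8*, the pore subunit of the channel of *Abcc9*, is named after its values were seen.

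The PDGF and angiopoietin pathways have further ligands and receptors. Of 5 further PDGF genes 4 were tested and 2 fell, beside 16.2% of all genes lower. The receptor gene *Pdgfra*, which is expressed in fibroblasts and is also counted among their markers, fell by 0.27 on the log2 scale (adjusted p = 0.0289, edgeR quasi-likelihood test, Benjamini-Hochberg adjusted), and *Pdgfrl*, a receptor-like protein, by 0.61 (adjusted p = 0.00541 in the same test). *Pdgfra* was not called in DESeq2, under total-count scaling or without control replicate 2 or 3 or *Rnf40ΔSC* replicate 1 or 2 (adjusted p from 0.0802 to 0.973), and *Pdgfrl* was not called under total-count scaling (0.110) or without control replicate 3 (0.0799). Of 4 further angiopoietin and Tie genes 3 were tested and 1 fell, beside the same 16.2% of all genes. The endothelial receptor gene *Tie1* fell by 0.61 (adjusted p = 0.0219, edgeR quasi-likelihood test, Benjamini-Hochberg adjusted). This call did not hold in DESeq2, under total-count scaling or without control replicate 1 or 3 or *Rnf40ΔSC* replicate 1 or 2 (adjusted p from 0.0792 to 0.197). *Tek*, the receptor of Angpt1, had a log2 fold change of −0.56 ± 0.23 SE and did not pass (adjusted p = 0.0659 in the same test), but was called without a filter on low counts (0.0131), without control replicate 1 (0.0134) and without *Rnf40ΔSC* replicate 3 (0.00378). Its log2 fold change was −0.29 without control replicate 3 and −0.37 without *Rnf40ΔSC* replicate 2, in neither case with a call. *Angpt4* had 0 reads in every library. The medians of these lists were −0.35 and −0.56.

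Genes that set the phosphorylation of the myosin light chain, on which Mylk acts, were called in both directions after TMM scaling. Of 11 genes 8 were tested, 3 rose and 2 fell, beside 15.5% of all genes higher and 16.2% lower. The median log2 fold change of the list was 0.22. Under total-count scaling, which moved the median of all genes upwards and called 32.9% of them higher and 7.79% lower, 5 were higher and 0 lower (median 0.49). In DESeq2, with 10.3% of all genes higher and 11.3% lower, *Ppp1cb* and *Rock1* were higher and 0 lower (median 0.23). The list as first chosen also held *Zak*, a gene of a stress-activated MAP kinase kinase kinase and not of this group, which was left out after its values were seen. It fell by 0.44, a call lost in 6 alternatives (adjusted p from 0.0551 to 0.431), and with it 3 of 9 genes fell and the median was 0.19. *Ppp1cb*, the catalytic subunit of myosin phosphatase and the most abundant of the list, rose by 0.35 on the log2 scale, and the kinase gene *Rock1* by 0.52 (adjusted p = 0.00481 and 0.0048, edgeR quasi-likelihood test, Benjamini-Hochberg adjusted). Both calls were lost without control replicate 3 (adjusted p = 0.0785 and 0.0644). *Rock2*, named after its values were seen, rose by 0.25, a call lost in DESeq2 (adjusted p = 0.0992), without a filter on low counts (0.0530) and when any library other than *Rnf40ΔSC* replicate 3 was left out (0.0519 to 0.194). *Prkg1*, the cyclic GMP-dependent kinase that relaxes smooth muscle, had 19, 13 and 21 reads in control and 6, 5 and 17 in *Rnf40ΔSC* libraries and fell by 1.23, and *Ppp1r12b*, a targeting subunit of the phosphatase, fell by 0.75. These 2 falls were not called in DESeq2, under total-count scaling or without control replicate 1 or *Rnf40ΔSC* replicate 1 or 2, and *Ppp1r12b* also not without control replicate 2 (adjusted p from 0.058 to 0.139). *Ppp1cb*, *Rock1* and *Rock2* are expressed in nearly all cells.

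Markers of other cells of the vessel and nerve were set beside the mural genes. Of 15 endothelial markers 8 fell and 0 rose in edgeR, beside 16.2% of all genes lower and 15.5% higher. At an unadjusted p of 0.05 and in DESeq2, 0 of the markers rose, and their median log2 fold change in edgeR was −0.56. Their sum was 1219, 1058 and 1191 CPM in control and 783, 792 and 951 CPM in *Rnf40ΔSC* libraries, and the most abundant was *Cdh5*, the cadherin of endothelial junctions. Of the 15, *Tek* and *Tie1* are also in the list of Tie genes. The calls came to 2 under total-count scaling (*Cldn5* and *Eng*, named after their values were seen) and to 5 in DESeq2 or without *Rnf40ΔSC* replicate 1. They came to 9 without a filter on low counts and to 10 without *Rnf40ΔSC* replicate 3. Of all genes, 7.79% to 17.3% were lower in these fits. The mean sum in *Rnf40ΔSC* nerves was 0.728 of control for endothelial markers, 0.691 for the 9 mural genes, 0.695 for the other pericyte genes and 0.726 for the other contractile genes. The ratio of *Pdgfrb* to *Pecam1* CPM, receptor RNA relative to that of an endothelial marker, was 1.05, 1.36 and 1.03 in control and 0.862, 1.04 and 1.03 in *Rnf40ΔSC* libraries. Control replicate 2 was high and *Rnf40ΔSC* replicate 1 low, and the remaining libraries of both groups lay close together.

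Lower levels were also found for markers of cells without a mural identity. Beside the counts below, 16.2% of all genes were lower and 15.5% higher, and 7.79% and 32.9% under total-count scaling. Of 10 fibroblast markers 8 fell (median −0.43), with sums of 54026, 52716 and 57169.6 CPM in control and 40325, 38661 and 38191 CPM in *Rnf40ΔSC* libraries and *Col3a1* as the most abundant. Of 7 perineurial markers 6 were tested and 4 fell (median −0.47), with *Itgb4* as the most abundant and *Slc2a1*, *Cldn1* and *Ntn4* named after their values were seen, and sums of 892, 1022 and 1011 against 585, 479 and 545 CPM. The call of *Cldn1*, whose libraries overlapped, was lost in 7 alternatives (adjusted p from 0.0632 to 0.925). *Ntn4* was not called under total-count scaling (0.0602) or without *Rnf40ΔSC* replicate 1 (0.0523). Most of the difference in the sum came from *Itgb4*, which Schwann cells also express, at 419, 477 and 490 CPM in control and 148, 120 and 160 CPM in *Rnf40ΔSC* libraries, and without it the sums were 473, 545 and 521 against 438, 359 and 385 CPM. Of 6 adipocyte markers 3 fell, namely *Adipoq*, *Plin1* and *Plin4*, named in the same way (median −0.66, *Adipoq* not called under total-count scaling or without control replicate 3), with sums of 1117, 846 and 1415 against 906, 824 and 670.3 CPM and *Fabp4* as the most abundant. Under total-count scaling 5 fibroblast (*Clec3b*, *Col1a2*, *Col3a1*, *Dpt* and *Pi16*), 2 perineurial (*Itgb4* and *Slc2a1*) and 2 adipocyte (*Plin1* and *Plin4*) markers were lower, and 1 fibroblast marker, *Lum*, named after its values were seen, was higher. With single libraries left out, the numbers were 7 to 8, 3 to 4 and 2 to 4. No marker in these lists was at 0 in every library. Their part in the lower levels of the mural genes was not tested.

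**Figure D4:**
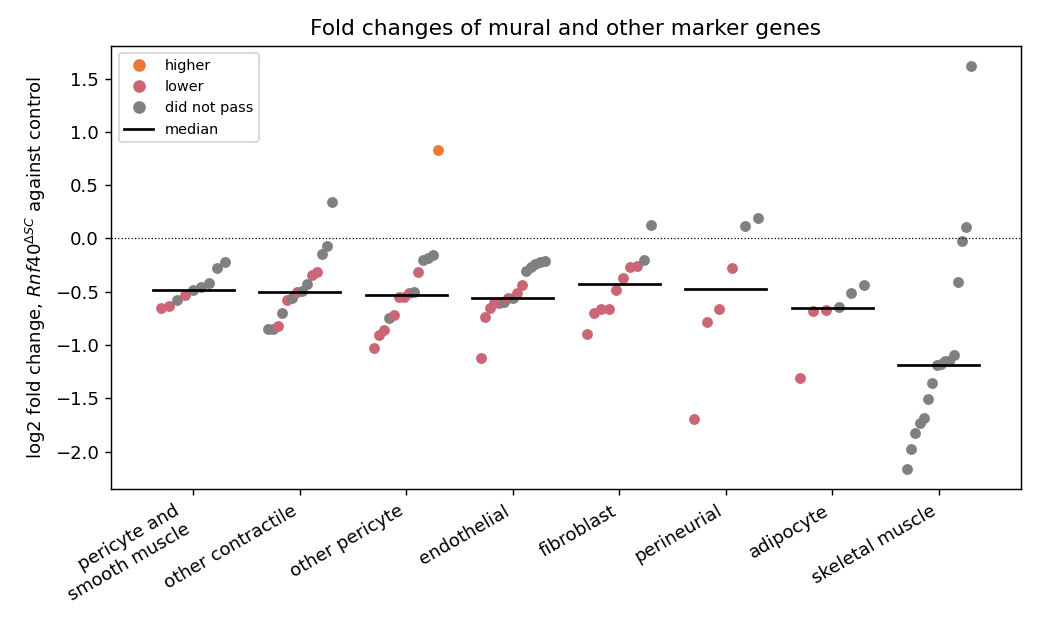
Log2 fold change of *Rnf40ΔSC* against control (y axis) for every tested gene of 8 gene lists, with a point per gene (orange called higher, red called lower, gray did not pass) and a line at each list's median. The medians of the pericyte and smooth muscle, other contractile, other pericyte and endothelial lists lie between −0.56 and −0.48.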

How the data were processed

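RNA-Seq counts of 3 control and 3 *Rnf40ΔSC* libraries were used, grouped by the sample labels. The authors aligned reads to mm9 with TopHat and deposited raw counts of uniquely mapped reads per gene from HTSeq, as whole numbers without normalization. The submitters' processing notes list Bowtie2 2.1.0 and the builds mm9 and mm10. Annotation and strand setting are not given in the sources used here, and the labels and the methods name different library kits. The labels call the samples biological replicates, each a pool of nerves, so that p-values measure the spread between pools. Replicates differed by more than sampling noise (chi-square per degree of freedom 1.78 to 5.21).

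Counts were analysed in R 4.3.3 with edgeR 4.0.16. Genes kept by filterByExpr were TMM-scaled. The quasi-likelihood test used the robust option and a model of genotype alone, and p-values were adjusted over all genes tested after Benjamini and Hochberg. Fold changes and standard errors come from this fit. CPM values are counts relative to the TMM-scaled library size, and correlations were computed on log2 CPM (prior count 2). The edgeR fit, and the DESeq2 fit used as an alternative, were tested on simulated counts. Exon lengths and overlaps are from GENCODE vM1 (NCBIM37, mm9), and promoter sequences from RefSeq (GRCm38.p6).

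Alternatives were RLE or total-count scaling, DESeq2 1.42.0 without a fold-change prior, no filter, a minimum of 10 counts per library, replicate number as a blocking term, leaving out single libraries and, chosen after seeing the data, a fit without the robust option. The genes, lists and cell type markers were chosen with earlier results of these data known. Named were the 9 genes, *Rnf40*, from each list up to 4 called genes of smallest adjusted p and the most abundant gene, from each marker list the most abundant gene and those at 0, and the 5 genes most correlated with *Myh11* and *Pdgfrb*. The list of Schwann cell markers is not reported here.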

Additional observations from a re-analysis of the deposited data

How the results depend on the processing

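Of the 9 mural genes 3 were lower. Over the libraries left out in turn this number was 3 to 5, with 5 without *Rnf40ΔSC* replicate 3, and the cause of these changes was not tested. It was 0 under the limits of the study, as the largest log2 fold change of the 9, −0.65, is below 0.8 in size. Genes higher in *Rnf40ΔSC* nerves numbered 1757, 3740 under total-count scaling and 424 under the limits of the study, and genes lower numbered 1841, 886 and 574. Lower genes made up 51.2% of the calls after TMM and 19.2% after total-count scaling. With libraries left out, 1294 to 1916 genes were higher and 1442 to 1992 lower. For 44 named genes, 504 of 568 fits gave the same call, 49 lost it, 15 of these under total-count scaling, and 15 gained it, and in 0 did a called gene change its sign. For 27 genes named after their values were seen, 310 of 350 fits gave the same call, 32 lost it, most often for *Rock2* (8), *Cldn1* (7), *Zak* (6) and *Foxs1* (5), and 8 gained it. Replicate numbers did not pair the libraries, as deviations of equally numbered libraries correlated at −0.09, −0.02 and −0.06. No library correlated best with the library of its own number. With the replicate number as a block, 1727 genes were higher and 1837 lower, and 4 of the 9 mural genes were lower, with *Myh11* added (adjusted p = 0.00297, edgeR quasi-likelihood test, Benjamini-Hochberg adjusted). In that fit *Tek* was called (0.0208) and *Rock2* was not (0.0543). *Angpt1* and *Cnn1*, with at most 19 reads in any library, fell below a minimum of 10 counts in every library and give no value there.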
